A study of Mus musculus with 12 samples.

Results

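The 9 genes described here encode core factors of nonsense-mediated decay (NMD): Upf1, Upf2, Upf3a, Upf3b, Smg1, Smg5, Smg6, Smg8 and Smg9. They were taken as a named list, matched by symbol to the gene identifiers of the count tables, and make up 9 of 55401 genes listed. All 9 were among the 17569 genes with enough reads to be tested. NMD is the cytoplasmic route that degrades mRNAs whose translation stops too early, for example because a splicing error has left a premature stop codon. UPF1, an RNA helicase, is brought to such an mRNA with UPF2 and UPF3A or UPF3B, which link it to exon junction complexes left behind by splicing. The kinase SMG1, held in check by SMG8 and SMG9, phosphorylates UPF1, after which SMG6 cuts the mRNA near the stop codon or SMG5 helps to call in decapping and deadenylation enzymes.

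The libraries come from Neuro-2a cells, a mouse neuroblastoma line, in which Rbmx, an RNA-binding protein gene with roles in splicing, or its intronless retrocopy Rbmxl1 was knocked down. Cells of every group received 1 µg of a GFP plasmid and 3 µg in all of plasmids expressing artificial miRNAs, and GFP-positive cells were sorted 48 h later. The control group received 1 scramble plasmid, the Rbmx knockdown group a pool of 3 plasmids and the Rbmxl1 knockdown group a pool of 2, with 4 libraries of ribosomal-RNA-depleted total RNA in each group. The controls were therefore transfected and sorted too, and both knockdowns are partial, transient reductions in 1 cell line. The labels call the 4 libraries of a group biological replicates but do not say what their number stands for, so the p-values measure the spread between these samples.

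Each library held 43096846 to 52241198 reads assigned to genes. Levels are given in CPM, the read counts of a gene scaled to the TMM-normalized size of its library. Rbmx was at 57.6 to 73.3 CPM in the scramble libraries and 22.2 to 32.6 CPM after its own knockdown, and Rbmxl1 at 31.3 to 36.7 CPM and 12.3 to 16.7 CPM after its own. Rbmx was also higher after Rbmxl1 knockdown, at 81.9 to 90 CPM in all 4 libraries (log2 fold change 0.36 ± 0.07, adjusted p = 0.0165), so the 2 knockdown groups differ from scramble in Rbmx in opposite directions. The 12 markers of neuroblastoma cells and neurons all passed the filter on low counts and summed to 1900 to 2630 CPM per library. Markers of other cell types were low: fibroblast markers summed to at most 2.98 CPM, immune markers to at most 1.48 CPM, epithelial markers to at most 0.126 CPM and glial markers to 12.9 to 19.9 CPM, most of it Mbp, and Cd3e, Aqp4, Epcam and Krt5 were at 0 in all 12 libraries. Libraries numbered 1 and 2 stood apart from those numbered 3 and 4 in every group, same-numbered libraries of different groups deviated together, and the replicate number was a term of the model unless stated.

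The 3 promoters shown here belong to Smg6 and Upf3b, the members whose level fell after knockdown, and to Upf3a, the paralogue of Upf3b. Each window covers the 200 bases that end 51 bases before the RefSeq transcription start (GRCm38.p6), read 5′ to 3′ on the gene's strand. They lie at chr11:74925604-74925803 (plus strand, Smg6), chrX:37110373-37110572 (minus strand, Upf3b) and chr8:13785365-13785564 (plus strand, Upf3a). Capitals mark the letters CCAAT, a binding sequence of the factor NF-Y, or GGGCGG, the GC box bound by SP1 and its relatives. Both strands were searched, and the former appears as ATTGG where it lies on the opposite strand.
Smg6: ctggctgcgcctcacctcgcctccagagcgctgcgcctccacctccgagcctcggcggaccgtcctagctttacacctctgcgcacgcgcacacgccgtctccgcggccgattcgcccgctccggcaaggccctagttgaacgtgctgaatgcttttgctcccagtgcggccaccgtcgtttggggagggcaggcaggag
Upf3b: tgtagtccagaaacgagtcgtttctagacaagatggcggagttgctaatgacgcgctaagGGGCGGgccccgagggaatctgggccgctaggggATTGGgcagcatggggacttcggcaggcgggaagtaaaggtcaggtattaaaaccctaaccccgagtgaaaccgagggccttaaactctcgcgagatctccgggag
Upf3a: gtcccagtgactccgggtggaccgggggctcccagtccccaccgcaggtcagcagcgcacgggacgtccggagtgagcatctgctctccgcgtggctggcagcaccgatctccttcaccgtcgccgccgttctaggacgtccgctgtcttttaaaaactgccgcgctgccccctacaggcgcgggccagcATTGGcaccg
All 9 members matched the RefSeq promoter table. The Smg6 window held 23 CpG dinucleotides, the Upf3b window 15 and the Upf3a window 21, and the members' counts ran from 9 to 29, beside a median of 4 over 32851 windows of the same length. On both strands, CCAAT was in the windows of Smg1, Smg8, Upf3a and Upf3b and in 28.4% of all windows, and GGGCGG was in those of Smg1, Smg9, Upf1, Upf2 and Upf3b and in 24.6% of all windows. The ETS core CCGGAA was found for Smg8 and Upf1 (8.03% of all windows) and the palindromic NRF1 site for Upf1 (0.444%). The E-box CACGTG (4.34% of all windows) and the cAMP response element TGACGTCA (0.828%) were in no member's window, and these 6 sequences do not contain one another. The Smg6 window held none of the 6 and the Upf3b window held 2 of them, so the 2 genes that fell shared no searched sequence.

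In the scramble libraries the members spanned a wide range of levels once divided by exonic length. Upf1, the helicase, had 44.0 ± 3.65 CPM per kilobase of merged exons (SD, n = 4) and Smg5, the adaptor for decapping and deadenylation, 33.5 ± 6.47 CPM per kilobase, and their libraries overlapped. Smg9 and Smg8, the inhibitory partners of the kinase, followed with 20.04 ± 1.51 and 14.1 ± 0.789 CPM per kilobase. Below them came Upf2, the bridge between UPF1 and UPF3, with 11.8 ± 1.18 CPM per kilobase, the kinase gene Smg1 with 11.7 ± 0.314 and the endonuclease gene Smg6 with 10.7 ± 1.18, and in this order neighbouring genes overlapped. Upf3a, at 7.32 ± 0.445 CPM per kilobase, and Upf3b, at 3.07 ± 0.0823, stood lowest, each apart from its neighbour in all 4 libraries. Against a median of 3.79 CPM per kilobase over 17540 tested genes with a length, Upf1 was at percentile 94.2 and Upf3b at percentile 46.5. This order rests on the length used. With the longest coding transcript in place of merged exons, Upf3a rose to 20.9 CPM per kilobase, above Smg1 (18.0), Smg6 (15.4), Smg8 and Upf2, Smg5 (52.4) passed Upf1, Smg9 stood at 33.1 and Upf3b stayed last at 5.24.

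**Figure D1:**
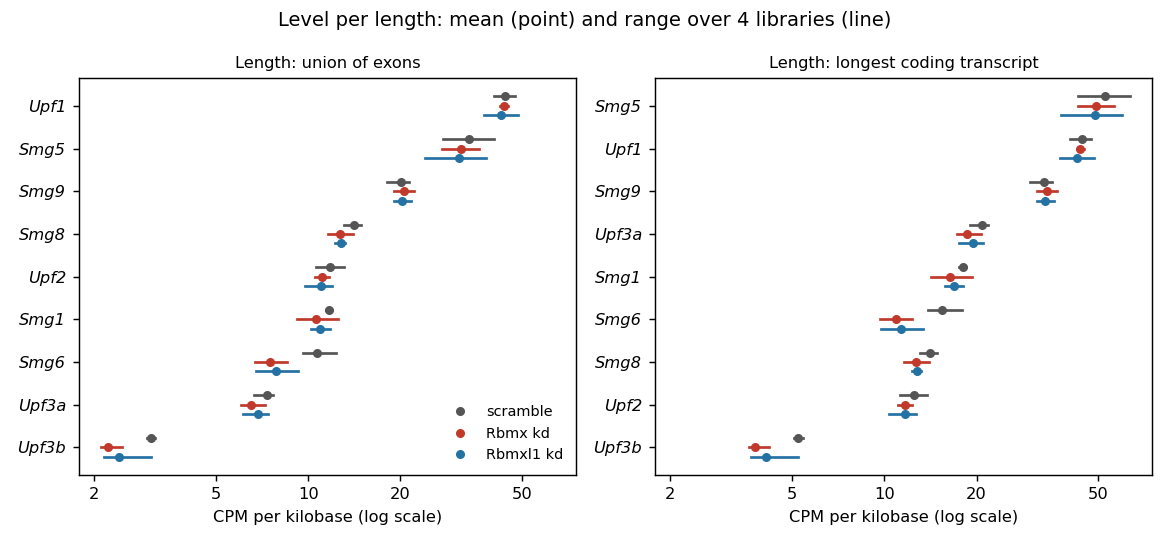
Level of each factor in CPM per kilobase (log axis), with length taken as merged exons or as the longest coding transcript. Scramble, Rbmx knockdown and Rbmxl1 knockdown are drawn, each with the mean (point) and range (line) of its 4 libraries. Upf1 and Smg5 lead and Upf3b is lowest under both lengths, while Upf3a changes place.

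After Rbmx knockdown 2 of the 9 factors fell, Smg6 and Upf3b, and none rose, at an adjusted p under 0.05 (edgeR's quasi-likelihood test, Benjamini-Hochberg adjustment over all tested genes). Of all tested genes 8.35% passed in this comparison, 4.16% higher and 4.19% lower. After Rbmxl1 knockdown 1 of the 9 fell, Smg6, and none rose, where 4.46% of all tested genes passed, 2.25% higher and 2.2% lower. These shares rest on 1467 and 783 genes, counts that move with single libraries: with 1 library or replicate number left out they ran from 146 (without all libraries numbered 3) to 1904 (without Rbmxl1 knockdown library 2) and from 100 (without all libraries numbered 4) to 1032 (without Rbmxl1 knockdown library 2). At an unadjusted p under 0.05 there were 4 members after Rbmx knockdown (Smg6, Upf3b, Upf3a and Smg8) and 3 after Rbmxl1 knockdown (Smg6, Upf3b and Smg8), each with a negative estimate, where 24.9% and 19.8% of all tested genes were at that threshold. The median log2 fold change of the 9 was −0.14 after Rbmx knockdown, beside 0 over all tested genes, and −0.10 after Rbmxl1 knockdown, beside 0.007. Both knockdowns are set against the same 4 scramble libraries, so their values are not independent of each other. Without the replicate number in the model no member was called in either comparison, and only 1 gene of all those tested was called in each. The pooled reads of a library cannot tell fewer cells expressing a gene apart from less RNA per cell.

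**Figure D2:**
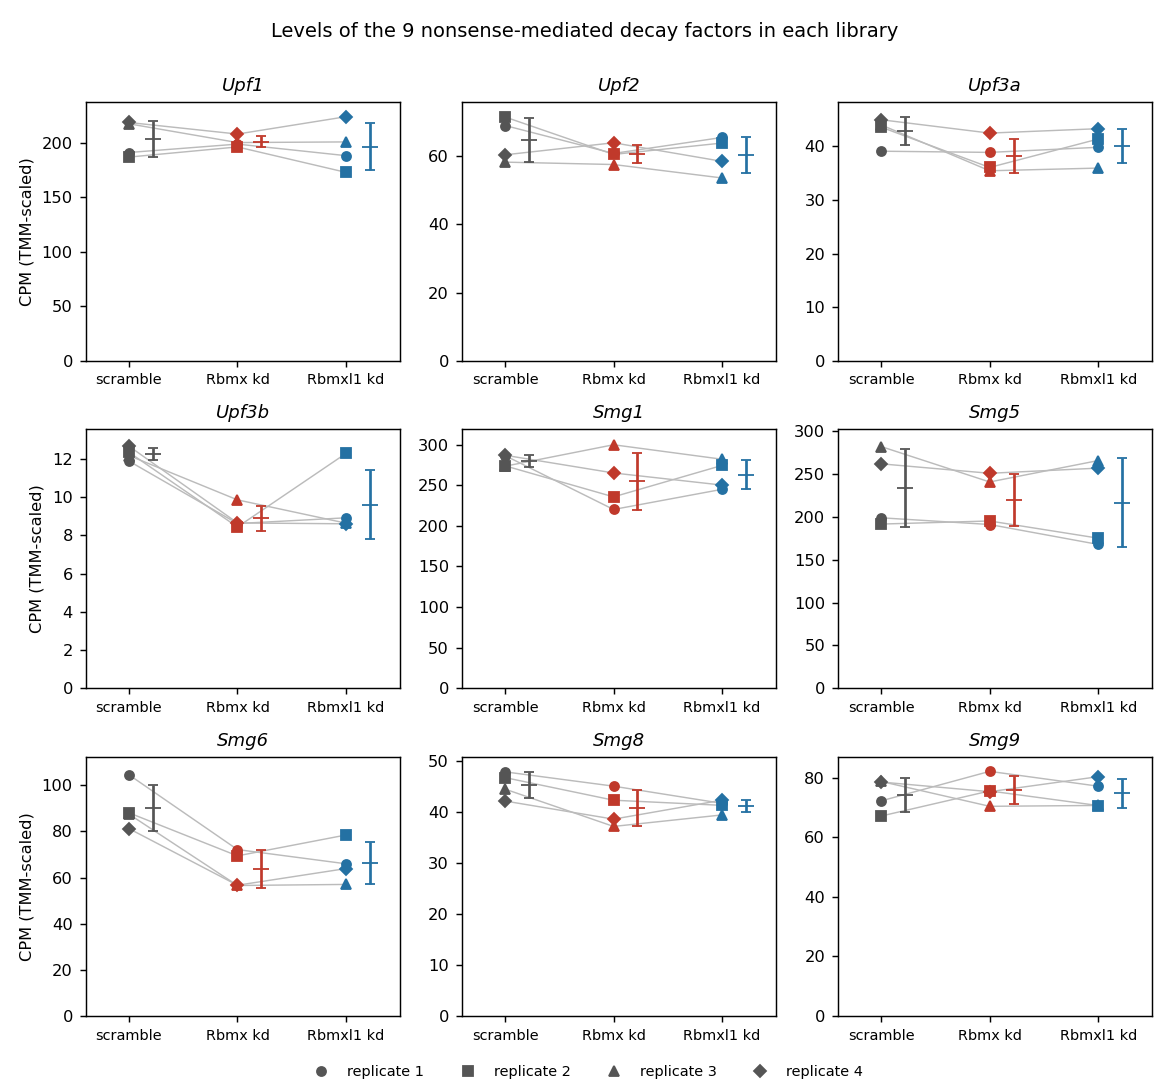
Level of each of the 9 factors in CPM (axis from 0) in the 12 libraries, by group, with the group mean and SD (n = 4). Smg6 separates the scramble libraries from both knockdown groups, Upf3b separates them from the Rbmx knockdown libraries, and the other 7 factors overlap between groups.

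Smg6 encodes the endonuclease that cuts the targeted mRNA. The gene (ENSMUSG00000038290) spans chr11:74925823-75164448 on the plus strand of GRCm38 and carries an internal exon of 1756 bases (chr11:74928993-74930748), longer than the longest internal exon of all but 2.6% of the 11841 tested genes that have one. Among the other members, Upf3b has a longest internal exon of 301 bases, Smg8 of 873 and Upf2 of 780. Of these 11841 genes 31.1%, 8.73% and 10.4% have a longer one. A link between exon length and the changes was not tested. In scramble libraries 1 to 4 Smg6 was at 104.5, 88.0, 87.5 and 81.2 CPM. It was at 72.1, 69.4, 56.6 and 56.7 CPM in the Rbmx knockdown libraries. In the Rbmxl1 knockdown libraries it was at 66.0, 78.4, 57.0 and 63.9 CPM. Every knockdown library was thus below every scramble library, a downward separation that 3.85% of all tested genes showed for Rbmx and 2.79% for Rbmxl1 (upward, 4.22% and 2.88%). Smg6 fell by 29.8% after Rbmx knockdown (log2 fold change −0.51 ± 0.07, SE, adjusted p = 0.00241), from a mean of 90.3 ± 9.97 CPM to 63.7 ± 8.24 CPM (SD, n = 4). It fell by 26.7% after Rbmxl1 knockdown (log2 fold change −0.45 ± 0.07, adjusted p = 0.00644), to a mean of 66.3 ± 8.93 CPM. It was lower in 4 of 4 pairs of same-numbered libraries in both comparisons.

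The Smg6 estimates among libraries 1 and 2 and among libraries 3 and 4 were all negative. Among libraries 1 and 2 the log2 fold change was −0.44 ± 0.12 for Rbmx (adjusted p = 0.139) and −0.40 ± 0.12 for Rbmxl1 (adjusted p = 0.189). Among libraries 3 and 4 it was −0.58 ± 0.08 (adjusted p = 0.000152) and −0.49 ± 0.08 (adjusted p = 0.000917). The difference between these sets did not pass a test of the interaction (adjusted p = 0.777 and 0.94). Without the replicate number in the model the estimates were −0.50 and −0.45 with adjusted p = 0.24 and 0.369, and without all libraries numbered 3 the Rbmxl1 call was lost at adjusted p = 0.0516. On the opposite strand the gene overlaps 6 others, of which Srr and Gm12333 share 243 exonic bases with it, out of 8453. Srr, which encodes serine racemase, was at 6.67 to 11.1 CPM and was not called (log2 fold change −0.07 ± 0.11 and −0.19 ± 0.11, adjusted p = 0.752 and 0.374), and Gm12333 was at 0 in 11 of 12 libraries. The part of these overlaps in the Smg6 counts was not tested.

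UPF3B and UPF3A both bridge UPF2 and the exon junction complex, and UPF3B is generally the more active of the pair in NMD. Upf3b (ENSMUSG00000036572; chrX:37091678-37110322, minus strand) was at 11.9, 12.4, 12.2 and 12.7 CPM in scramble libraries 1 to 4. It was at 8.62, 8.44, 9.86 and 8.66 CPM in the Rbmx knockdown libraries, all below the scramble libraries. In the Rbmxl1 knockdown libraries it was at 8.92, 12.3, 8.64 and 8.61 CPM, and library 2 lay within the scramble range. Upf3b fell by 27.5% after Rbmx knockdown (log2 fold change −0.46 ± 0.11, adjusted p = 0.0205, lower in 4 of 4 pairs). After Rbmxl1 knockdown the estimate was −0.36 ± 0.11 (95% interval −0.60 to −0.13) and did not pass (adjusted p = 0.0765, lower in 4 of 4 pairs). Both outcomes moved with single libraries. The Rbmx call was lost without all libraries numbered 1, 3 or 4, without scramble library 1, 3 or 4, or without Rbmx knockdown library 2 (adjusted p = 0.0566 to 0.0957). The Rbmxl1 estimate passed without Rbmxl1 knockdown library 2, at −0.50 (adjusted p = 0.0119), and without all libraries numbered 2, at −0.49 (adjusted p = 0.0269). It also passed with DESeq2 (adjusted p = 0.0279) and with no filter on low counts (adjusted p = 0.031). Among libraries 1 and 2 it was smaller, at −0.19 ± 0.15 (adjusted p = 0.662), and among libraries 3 and 4 it was −0.54 ± 0.12 (adjusted p = 0.0161), a difference that did not pass a test of the interaction (adjusted p = 0.713). For Rbmx the 2 sets gave −0.495 ± 0.16 (adjusted p = 0.169) and −0.43 ± 0.12 (adjusted p = 0.0296).

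Upf3a (ENSMUSG00000038398; chr8:13785615-13799193, plus strand) was at 39.1, 43.6, 44.0 and 45.0 CPM in scramble libraries 1 to 4. It was at 38.9, 36.1, 35.5 and 42.5 CPM in the Rbmx knockdown libraries and at 39.8, 41.4, 36.0 and 43.3 CPM in the Rbmxl1 knockdown libraries. The groups overlapped, and neither difference passed: the log2 fold change was −0.17 ± 0.07 for Rbmx (95% interval −0.31 to −0.03, adjusted p = 0.124) and −0.10 ± 0.07 for Rbmxl1 (adjusted p = 0.44). The count ratio of Upf3a to Upf3b, which needs no scaling between libraries, was 3.29, 3.53, 3.61 and 3.55 in the scramble libraries. It was 4.51, 4.27, 3.6 and 4.91 in the Rbmx knockdown libraries and 4.46, 3.37, 4.16 and 5.03 in the Rbmxl1 knockdown libraries. Higher ratios stood in 3 of 4 libraries of each knockdown group, and library 3 of the first and library 2 of the second lay within the scramble range. On the log2 scale the ratio differed from scramble by 0.30 for Rbmx and 0.27 for Rbmxl1, and neither passed a 2-sided exact permutation test (p = 0.0571 and 0.114, both 0.171 after adjustment over the 3 comparisons), for which 0.0286 is the smallest p that 4 against 4 allows. No word of 50 bases in the longest coding transcript of Upf3b occurred in another gene, Upf3a included, while 2.54% of those of Upf3a occurred in other genes.

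The helicase gene and its bridging partner did not pass in either comparison. Upf1 (ENSMUSG00000058301; chr8:70331525-70353278, minus strand) was at 191, 187, 217 and 218 CPM in the scramble libraries, 198.6, 196, 200 and 207.8 CPM after Rbmx knockdown and 188, 173, 201 and 224 CPM after Rbmxl1 knockdown. Its groups overlapped throughout, and the log2 fold changes were −0.02 ± 0.06 (95% interval −0.14 to 0.11, adjusted p = 0.897) and −0.05 ± 0.06 (adjusted p = 0.659). Upf1 shares 131 exonic bases with Cers1 and Gdf1 on the opposite strand. Gdf1 was at 0 in all libraries and Cers1 was not called. Upf2 (ENSMUSG00000043241; chr2:5951469-6056703, plus strand) was at 69.0, 71.5, 58.2 and 60.4 CPM in the scramble libraries, 60.8, 60.5, 57.5 and 63.9 CPM after Rbmx knockdown and 65.5, 63.8, 53.6 and 58.5 CPM after Rbmxl1 knockdown. The groups overlapped again, with log2 fold changes of −0.09 ± 0.06 (adjusted p = 0.405) and −0.10 ± 0.06 (adjusted p = 0.393).

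The kinase gene Smg1 (ENSMUSG00000030655; chr7:118131308-118243670, minus strand) was at 286, 274, 273 and 287 CPM in the scramble libraries, 220, 236, 300 and 265 CPM after Rbmx knockdown and 245, 274, 282 and 250 CPM after Rbmxl1 knockdown. The Rbmx knockdown libraries spread widely (255.1 ± 35.1 CPM, SD, n = 4, against 280.1 ± 7.53 CPM in scramble), and the log2 fold changes of −0.14 ± 0.07 and −0.10 ± 0.07 did not pass (adjusted p = 0.229 and 0.499). Smg8 (ENSMUSG00000020495; chr11:87077732-87086774, minus strand), an inhibitor of the kinase, was at 48.0, 46.8, 44.6 and 42.2 CPM in the scramble libraries, 45.2, 42.4, 37.2 and 38.7 CPM after Rbmx knockdown and 41.8, 41.4, 39.5 and 42.4 CPM after Rbmxl1 knockdown. It was lower in 4 of 4 pairs for Rbmx and in 3 of 4 for Rbmxl1, and the log2 fold changes of −0.15 ± 0.06 and −0.14 ± 0.06 did not pass (adjusted p = 0.13 and 0.228). Smg9 (ENSMUSG00000002210; chr7:24399619-24422778, plus strand), which acts with SMG8, had 74.2 ± 5.59 CPM in scramble, 75.9 ± 4.82 CPM after Rbmx knockdown and 74.8 ± 4.85 CPM after Rbmxl1 knockdown (SD, n = 4). Its log2 fold changes of 0.03 ± 0.06 and 0.009 ± 0.06 did not pass (adjusted p = 0.798 and 0.959), and their sign turned with the correction for GC content (−0.009 and −0.05). Smg5 (ENSMUSG00000001415; chr3:88336260-88362338, plus strand) was at 198.6, 191.3, 281.5 and 261.4 CPM in the scramble libraries, 191, 195, 240 and 250 CPM after Rbmx knockdown and 168, 175, 265 and 256 CPM after Rbmxl1 knockdown. Its spread within a group followed the replicate number more than the group, and the log2 fold changes of −0.08 ± 0.06 and −0.12 ± 0.06 did not pass (adjusted p = 0.454 and 0.287).

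**Figure D3:**
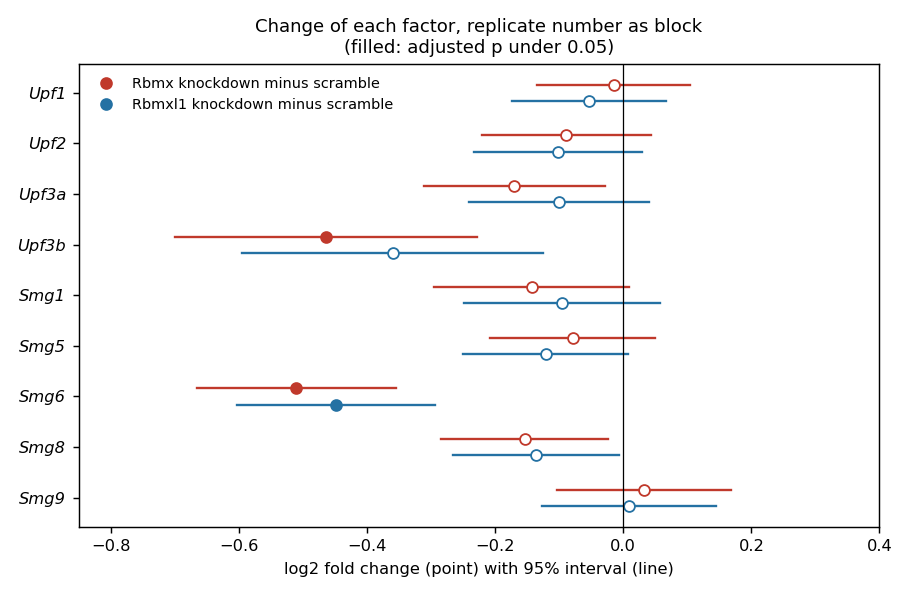
Log2 fold change of each factor (point) with its 95% interval (line) for each knockdown minus scramble, with the replicate number in the model. Filled points mark an adjusted p under 0.05: Smg6 at −0.51 and −0.45 and Upf3b at −0.46. The direct comparison of the knockdowns is not drawn.

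The 2 knockdowns were also compared directly. None of the 9 factors differed between them with edgeR's quasi-likelihood test, and none had an unadjusted p under 0.05, as 5.7% of all tested genes did; DESeq2 and limma-voom called 0 of the 9 as well. Of all tested genes 0.0114% were called in this comparison. For Smg6 the log2 difference of Rbmx minus Rbmxl1 knockdown was −0.06 ± 0.07 (95% interval −0.22 to 0.09, adjusted p = 0.929), and for Upf3b it was −0.10 ± 0.11 (95% interval −0.34 to 0.14, adjusted p = 0.922). These intervals leave room for a difference either way, so they do not show that the 2 knockdowns act alike on these genes.

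Among 12 other genes with a role in NMD or at the stop codon, 11 were tested and none was called between the knockdowns; Gspt2, a release factor gene, had too few reads. Of all tested genes 4.16% were called higher after Rbmx knockdown and 4.19% lower. Of the 11, 3 rose and none fell, with a median log2 fold change of 0.11. These were Ruvbl2, an ATPase that acts with the SMG1 complex (0.25 ± 0.06, adjusted p = 0.0176), Nbas (0.27 ± 0.08, adjusted p = 0.0485) and Mov10, an RNA helicase (0.21 ± 0.06, adjusted p = 0.0491). Ruvbl2 was at 106, 115, 122 and 124 CPM in the scramble libraries and at 126, 132, 152 and 144 CPM after Rbmx knockdown, without overlap, while Nbas and Mov10 overlapped scramble. Mov10 was at 0.34 among libraries 1 and 2 and 0.07 among libraries 3 and 4 (adjusted p = 0.125 and 0.593), and Nbas was at 0.18 without scramble library 1 (adjusted p = 0.189). With RLE or library-size scaling both missed the threshold (adjusted p = 0.0553 to 0.0639). After Rbmxl1 knockdown 2 rose and none fell, with a median of 0.03. Of all tested genes 2.25% were called higher and 2.2% lower in this comparison. Mov10 went from 74.4, 74.8, 68.8 and 69.5 CPM to 98.6, 87.8, 80.2 and 83.1 CPM without overlap (0.28 ± 0.06, adjusted p = 0.0231), and Ruvbl2 rose by 0.24 ± 0.06 (adjusted p = 0.032), with overlap.

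Of 16 genes of the exon junction complex and its partners, 1 fell after each knockdown and none rose, with medians of −0.07 and −0.09, where 8.35% and 4.46% of all tested genes were called, so that 1 of 16 is close to what all genes show. It was in both cases Ncbp3, a cap-binding protein gene: it was at 46.0, 46.8, 47.9 and 48.8 CPM in scramble libraries 1 to 4 and at 41.6, 39.5, 41.1 and 42.2 CPM after Rbmx knockdown (−0.21 ± 0.06, adjusted p = 0.0395). After Rbmxl1 knockdown it was at 40.2, 39.4, 36.9 and 42.4 CPM (−0.26 ± 0.06, adjusted p = 0.0251). Neither knockdown group overlapped the scramble libraries, and with the length trend removed neither call held (−0.12, adjusted p = 0.245 for Rbmx, and −0.18, adjusted p = 0.113 for Rbmxl1). Of 19 decapping, deadenylation and 5′ decay genes, 2 fell after Rbmx knockdown, also near the 8.35% of all tested genes: Cnot7, a deadenylase of the CCR4-NOT complex (−0.25 ± 0.05, adjusted p = 0.014), and Pan2, a further deadenylase (−0.54 ± 0.12, adjusted p = 0.0149). Cnot7 was at 113 to 130 CPM in scramble and 93.2 to 112 CPM after knockdown, without overlap, and with GC content removed its estimate was −0.16 (adjusted p = 0.0988). Pan2 ranged from 72.0 to 158 CPM in scramble and overlapped. After Rbmxl1 knockdown none of the 19 was called, with 5 at an unadjusted p under 0.05 beside 19.8% of all tested genes, 2 called by DESeq2 and 0 by limma-voom. Of 12 genes of the exosome and no-go decay, none was called after Rbmx knockdown, with 1 at an unadjusted p under 0.05 beside 24.9% of all tested genes, 1 called by DESeq2 and 0 by limma-voom. After Rbmxl1 knockdown 1 fell, the exosome nuclease gene Dis3 (−0.22 ± 0.06, adjusted p = 0.0364, lower in 4 of 4 pairs).

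Transcripts that textbooks give as NMD targets moved in both directions. Of 13, after Rbmx knockdown 1 rose and 2 fell, and after Rbmxl1 knockdown 2 rose and 1 fell, with medians of 0.02 and 0.02. Of all tested genes 8.35% and 4.46% were called. DESeq2 called 3 up and 2 down, and 3 up and 3 down. In each comparison 8 of the 13 had an unadjusted p under 0.05 with edgeR, in both directions. Of all tested genes 24.9% and 19.8% were at that threshold. Without the replicate number in the model 3 of the 13 were, in each comparison. Tbl2 rose by 0.22 ± 0.06 (adjusted p = 0.0301) after Rbmx knockdown and by 0.25 ± 0.06 (adjusted p = 0.0269) after Rbmxl1 knockdown. Nat9 was at 7.68, 8.14, 9.06 and 8.42 CPM in the scramble libraries and at 9.56, 11, 11.1 and 11.6 CPM after Rbmxl1 knockdown (0.38 ± 0.10, adjusted p = 0.0396), without overlap. Of the 4 snoRNA host transcripts of the list, Zfas1 had log2 fold changes of −0.28 ± 0.07 (adjusted p = 0.0179) and −0.26 ± 0.07 (adjusted p = 0.0382), and Snhg12 had −0.27 ± 0.07 (adjusted p = 0.0373) after Rbmx knockdown and −0.25 ± 0.07 after Rbmxl1 knockdown (adjusted p = 0.0674 with edgeR, 0.0331 with DESeq2). The other 2, Gas5 (−0.15 ± 0.07 and −0.13 ± 0.07, adjusted p = 0.172 and 0.282) and Snhg1 (−0.12 ± 0.08 and −0.14 ± 0.08, adjusted p = 0.393 and 0.366), did not pass. Snhg12 stood at −0.12 among libraries 1 and 2 and −0.41 among libraries 3 and 4 after Rbmx knockdown, and at −0.07 and −0.43 after Rbmxl1 knockdown. Without all libraries numbered 3 it was at −0.16 (adjusted p = 0.218) and −0.145 (adjusted p = 0.36), and without scramble library 3 alone at −0.165 and −0.148. Zfas1 after Rbmxl1 knockdown was at −0.12 among libraries 1 and 2 and −0.39 among libraries 3 and 4. Zfas1 and Snhg12 lie over other annotated genes on the same strand, 4 for Zfas1 and 5 for Snhg12, and the part of those genes in the counts was not tested. The largest estimate of the list, Gadd45b after Rbmx knockdown (0.65 ± 0.21), did not pass (adjusted p = 0.0609). Each of the 16 calls in these 5 lists was lost in 6 to 22 of 28 alternative settings, beside 9 for Upf3b (Rbmx) and 2 and 3 for Smg6, and without the replicate number none passed (lowest adjusted p = 0.291 and 0.369).

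**Figure D4:**
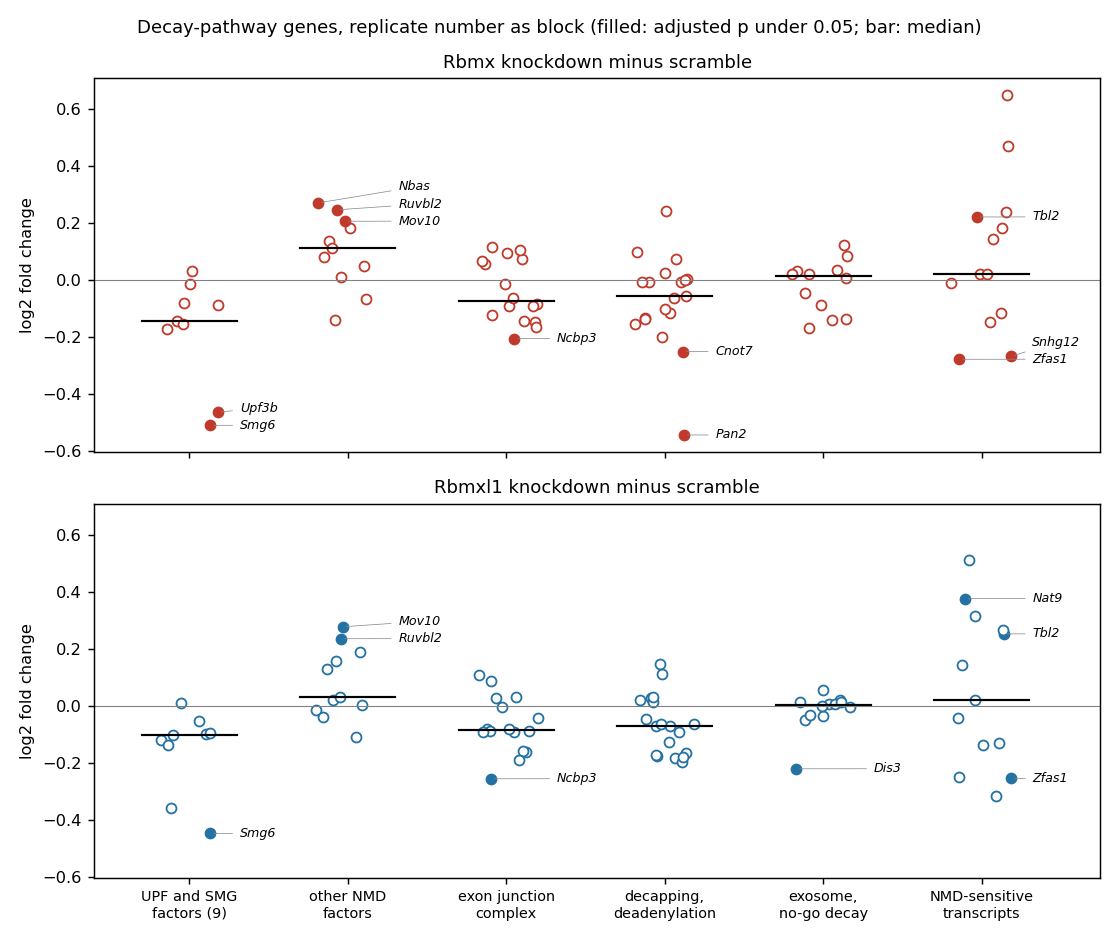
Log2 fold change after each knockdown of the 9 UPF and SMG factors and of the tested genes of 5 related lists, with the replicate number in the model. Each circle is a gene, filled at an adjusted p under 0.05 and then named, and the bar is the list's median, which lies between −0.14 and 0.11 in every list.

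For Upf1 and Smg1 the tested genes with the most similar pattern over the 12 libraries were looked up among 9373 candidates, by the Pearson correlation of log2 CPM after removal of the mean of each replicate number. The closest to Upf1 were Supt4a (r = 0.974), Ints7 (r = 0.955) and Nploc4 (r = 0.95), and the closest to Smg1 were Dmxl2 (r = 0.978), Srsf10 (r = 0.962) and Kmt2c (r = 0.956), each over 12 libraries. These are the highest of many values and share the libraries and their depth, and they are given as a description.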

How the data were processed

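Total RNA of 12 libraries (4 per group) was sequenced after ribosomal depletion. The deposited values are whole-number counts of reads per gene, 1 file per library, made by the authors with cutadapt, STAR 2.5.3a and HTSeq 0.6.1p1 on mm10, per the submitters' processing notes, which also list R 3.3.2 and DESeq2 1.16.1. The strand setting and annotation release are not given in the sources used here. The 5 lines that name no gene held 52.3 to 57.4% of each file and were left out, which left 43096846 to 52241198 counts per library. The lowest count of any member was 386.

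Counts of all genes were tested in R 4.3.3 with edgeR 4.0.16 (quasi-likelihood test on all 12 libraries, TMM scaling, low-count filter of 10 per gene and 15 in total, replicate number as a block), with Benjamini-Hochberg adjustment over 17569 genes and a threshold of 0.05. SE was taken as the log2 fold change over the square root of F. Same-numbered libraries of different groups deviated together from their group means (r = 0.20 to 0.52 over 12 pairs), and this, not the labels, is the ground for the block. Pairs with different numbers of the same set (1 and 2, or 3 and 4) had r = 0.10 to 0.43 over 12 pairs, a range that largely overlaps, and pairs across the sets −0.57 to −0.13 over 24, so the shared deviation follows the set as well as the number. Alternatives used DESeq2 1.42.0, limma 3.58.1 (voom), no block, other scalings and filters, GC and length offsets, and libraries left out. The count test was tested on counts simulated from a fit with the replicate number, for the comparison of Rbmx knockdown and scramble. Of all genes 200 were changed, and 17299 passed the filter in the first run. Over 3 runs it recovered on average 44.7% at 1.4-fold and 72% at 2-fold. On average 6.2% and 6.5% of its calls were false, and at most 7.6% and 8.4%. The replicate number shaped the simulated counts, so these values cannot show whether the block suits the data.

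The members and all lists were chosen with earlier results of these data known. All 9 members are named, and from each other list the genes called in either knockdown against scramble, at most 5 by adjusted p. Outside this rule, and after their values were seen, Gas5, Snhg1, Gadd45b and the untested Gspt2 are named too. From the lists, 1 pathway gene and 1 marker are not reported here. Gene positions and lengths come from GENCODE M21 (GRCm38), which held 55141 of the 55401 identifiers.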

Additional observations from a re-analysis of the deposited data

Results flagged for a closer look

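Upf3b held the 2 values that stood apart within a group of 4 libraries: the gap to the nearest other library, as a share of the group's range, exceeded Dixon's 95% critical value. In the Rbmx knockdown group, library 3 was at 9.86 CPM while the others were at 8.44 to 8.66 CPM (share 0.85). In the Rbmxl1 knockdown group, library 2 was at 12.3 CPM while the others were at 8.61 to 8.92 CPM (share 0.915). Of 63 groups of 4 checked, these were the 2 found, and chance gives about 1 in 20.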

How the results depend on the processing

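Over all alternatives the members gave 560 values, of which 513 kept direction and side of the threshold, and the list genes gave 616, of which 374 did. The count of members called was 2 for Rbmx knockdown and 1 for Rbmxl1 knockdown. Without the replicate block it was 0 and 0, and among libraries 1 and 2 it was 0 and 0. For Rbmxl1 it was 2 with DESeq2, with no filter on low counts and among libraries 3 and 4. With 1 library or 1 replicate number left out it was 1 to 2 for Rbmx and 0 to 2 for Rbmxl1, and between the knockdowns it was 0 in all 28 alternatives. The log2 fold change of Smg6 with a library or number left out ran from −0.585 to −0.46 for Rbmx and from −0.539 to −0.383 for Rbmxl1. The estimates that changed sign had not passed the test. Smg9 turned to −0.00875 (Rbmx) and −0.053 (Rbmxl1) with GC content removed and to −0.00485 (Rbmxl1) with length removed. Among libraries 1 and 2, Upf1 turned to 0.073 (Rbmx) and Pan2 to 0.00409 (Rbmxl1). Among libraries 3 and 4, Upf2 turned to 0.0245 and Smg1 to 0.000177 (Rbmx), Smg9 to −0.12 (Rbmx) and −0.0706 (Rbmxl1), and Upf3b to 0.103 between the knockdowns. With a library or number left out, Smg9 ran from −0.0206 to 0.104 (Rbmx) and from −0.0299 to 0.0711 (Rbmxl1), and Upf1 from −0.0479 to 0.0252 (Rbmx). Between the knockdowns Upf3b ran from −0.197 to 0.0549, Smg6 from −0.119 to 0.0127 and the log2 ratio of Upf3a to Upf3b from −0.077 to 0.108. The cause was not tested. Other estimates that had not passed kept their sign but moved by over 1.5 times, such as Upf3a (Rbmxl1) from −0.147 to −0.0364, Smg1 (Rbmx) from −0.231 to −0.0671 and Smg5 (Rbmx) from −0.11 to −0.0245 with a library or number left out. The length of the longest coding transcript, chosen after seeing the data, moved the scramble levels per kilobase to 20.87 (Upf3a), 5.236 (Upf3b), 18 (Smg1), 52.43 (Smg5), 15.44 (Smg6) and 33.1 (Smg9). Across all genes the calls ranged from 1 to 2190 (Rbmx), from 1 to 1279 (Rbmxl1) and from 2 to 86 (between the knockdowns). Every member had at least 386 counts in every library.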

Other observations

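The level of some factors differed between libraries numbered 1 and 2 and those numbered 3 and 4, whatever the group. Smg5 was at 167.6 to 198.6 CPM in the 6 libraries numbered 1 or 2 and at 240.3 to 281.5 CPM in the other 6. Upf1 was at 172.7 to 198.6 CPM and at 200 to 223.7 CPM. These were the 2 of 9 members (22.2%) whose library sets did not overlap, beside 3519 of 17569 tested genes (20%).

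Whether the knockdown changes differed between these sets was tested as an interaction with edgeR's quasi-likelihood test. None of the 9 factors passed for either knockdown, and none of all tested genes did, with 1944 and 1468 genes at an unadjusted p under 0.05. Among the members 3 were at an unadjusted p under 0.05 for Rbmx knockdown, Smg1 (0.31 ± 0.12 on the log2 scale, adjusted p = 0.376), Upf2 (0.24 ± 0.10, adjusted p = 0.402) and Smg9 (−0.29 ± 0.10, adjusted p = 0.348), and 0 for Rbmxl1 knockdown.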
